A study of Oryctolagus cuniculus with 6 samples.

Results

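The mitochondrial genome of vertebrates has 2 strands, called heavy and light, and both are transcribed almost from end to end. Most of its genes are read from the heavy-strand transcript. The light-strand transcript carries ND6, a subunit of complex I of the respiratory chain, and 8 tRNAs, for glutamine, alanine, asparagine, cysteine, tyrosine, serine (1 of the pair of serine tRNAs), glutamate and proline. The long transcripts are cut mostly at the tRNAs that lie between the other genes, and RNA that lies antisense to a gene is normally broken down in the mitochondrion. Heart muscle is rich in mitochondria, so its RNA holds much mitochondrial transcript.

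These 9 genes are described here in 6 RNA libraries made from left ventricles of adult rabbits, Oryctolagus cuniculus. All 6 libraries belong to 1 group: animals operated on as sham controls (a suture round a coronary artery, left too loose to close it), whose hearts were taken 3 weeks later and washed free of blood. Libraries are called 1 to 3 (title prefix 13872) and 4 to 6 (title prefix 14285). The labels leave the meaning of the prefix unsaid, name 2 RNA extraction kits without tying them to libraries, and tie no library to an animal, so the spread between libraries may be partly technical. No strain, sex or other treatment is given.

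The genes were chosen by ID, not by level. The tables hold 23669 Ensembl rabbit IDs without names, and among them a run of 37 IDs in consecutive rows, from ENSOCUG00000029081 to ENSOCUG00000029117. A vertebrate mitochondrial genome has as many genes, and the names used here follow from the order of those genes along the run. A name is therefore written as a place: "the ND6 place" is ENSOCUG00000029113. The other light-strand places are Gln (ENSOCUG00000029088), Ala (ENSOCUG00000029092), Asn (ENSOCUG00000029093), Cys (ENSOCUG00000029094), Tyr (ENSOCUG00000029095), Ser (ENSOCUG00000029097), Glu (ENSOCUG00000029114) and Pro (ENSOCUG00000029117). The remaining 28 places of the run are heavy-strand places. Markers of heart muscle could not be looked up, since no table used here pairs the IDs with symbols. Neither coordinates nor sequences of the places were used.

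Each table counts fragments on the annotated strand of a gene (own strand) and on the other strand (opposite strand). At a light-strand place the opposite strand is that of the heavy-strand transcript. The libraries held 25427072 to 34882484 fragments, with 9829581 to 12514152 counts on own strands and 139265 to 267925 on opposite strands. CPM is an ID's share of the gene counts of its own column, scaled to 1000000. A count of 0 allows up to 3 counts, or 0.240 to 0.305 CPM on the own strand and 11.2 to 21.5 CPM on the opposite strand.

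In counts summed over the libraries, the strand pattern along the run followed the assigned places. Of the 9 light-strand places, 8 had at least 10 counts in 3 libraries, and in all 8 the opposite-strand counts summed over the libraries exceeded the own-strand counts. This held for 5.89% of the 12739 IDs with that minimum. Only at the Tyr, Ser and Pro places did it hold in each of the 6 libraries. At the ND6 place the sums were close, 2314 against 2076, and the opposite strand was higher in only 2 libraries. The same minimum was reached at 16 of the 28 heavy-strand places, and in all 16 the own strand had more. The other 12 heavy-strand places, all tRNAs, had under 10 counts in total. The Asn place was the light-strand place without enough counts, with 2 and 5 opposite-strand counts in libraries 2 and 3 and 1 own-strand count in each of libraries 4 and 5.

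**Figure D1:**
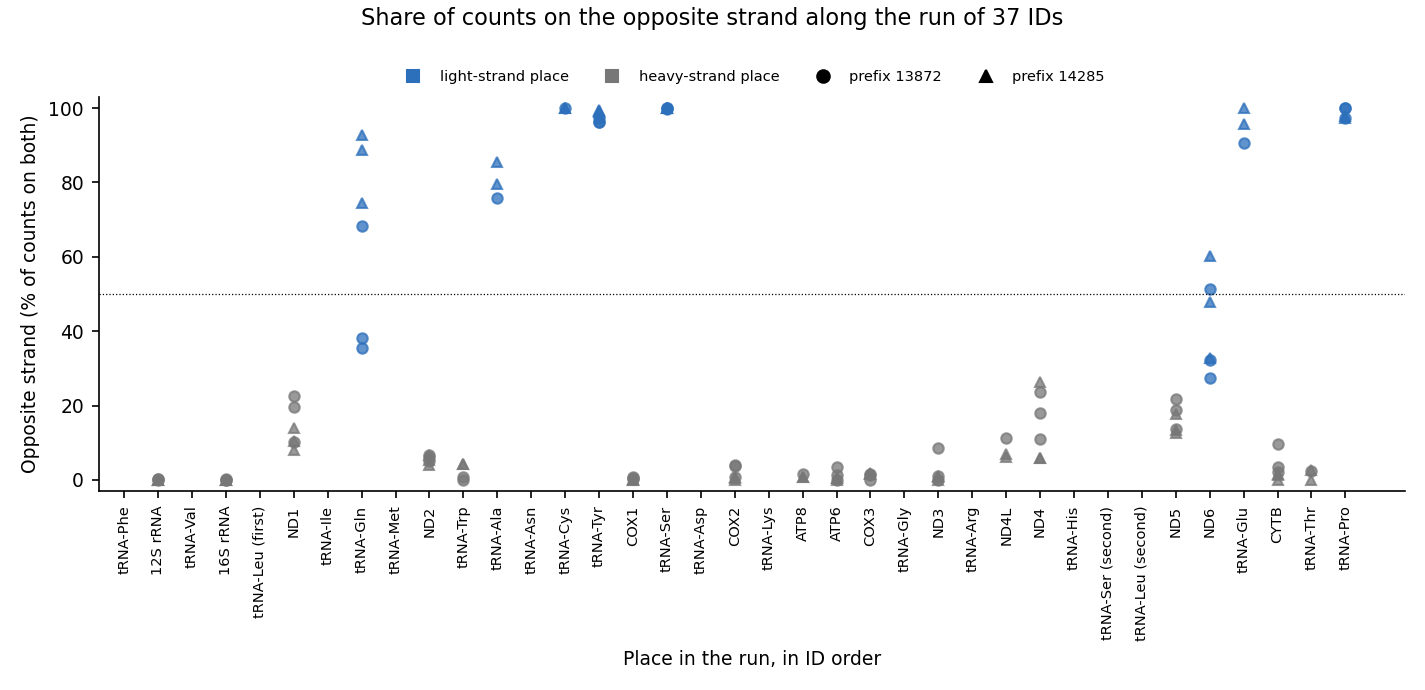
Opposite-strand counts as a percent of the counts on both strands (vertical axis) at each of the 37 places of the run, in ID order; each point is 1 library with at least 10 counts at that place, circles for prefix 13872 and triangles for 14285. Heavy-strand places (grey) stay under 50%, the Cys, Tyr, Ser, Glu and Pro places (blue) lie near 100%, and the Gln and ND6 places straddle 50%.

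The comparison of strands asks whether the RNA counted at a light-strand gene came from its own transcript or from the one running through it the other way. With edgeR's quasi-likelihood test over 12739 IDs, 7 of the 8 light-strand places tested were higher on the opposite strand at an adjusted p under 0.05, and 0 were higher on the own strand. Over all IDs tested, 4.91% were called higher on the opposite strand and 93% higher on the own strand. The median log2 ratio of own over opposite strand was -4.93 over the 8 places and 7.36 over all IDs tested; at the 16 heavy-strand places tested it was 5.84, with 16 called higher on the own strand. The lowest opposite-strand count exceeded the highest own-strand count at the Tyr and Ser places, and this held for 3.92% of all IDs tested. edgeR assigned every ID the spread of its abundance class (an infinite prior weight), so its p-values lean little on the 6 libraries of a place. An exact sign-flip test over the libraries, which cannot go below p = 0.03125, called only the Tyr, Ser and Pro places, each at that p and at an adjusted p of 0.0323 over all IDs; it called 4.59% of all IDs higher on the opposite strand.

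The Ser place held nearly all of the opposite-strand signal. This tRNA lies between the COX1 and Asp places, antisense to the RNA that leads on from COX1, the catalytic subunit of cytochrome c oxidase. It had 68532, 3708, 5188, 119493, 5391 and 88100 opposite-strand counts in libraries 1 to 6. Libraries 1, 4 and 6 were high and libraries 2, 3 and 5 low, with no value between 5391 and 68532. Its own-strand counts were 40, 4, 1, 13, 1 and 13, again highest in libraries 1, 4 and 6. The own strand made up 0.0383% ± 0.0382 (SD, n = 6) of its counts, and the log2 ratio of own over opposite was -11.89 (SE 0.39). The Ser place had rank 1 among all IDs of the opposite-strand column in libraries 1, 4, 5 and 6, and rank 3 in libraries 2 and 3.

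The 9 places together took 29.4%, 2.85%, 2.77%, 45.7%, 4.25% and 36.5% of all opposite-strand gene counts in libraries 1 to 6. The Ser place supplied 88.2% to 97.7% of that. On the own strand the 9 places took 0.00692%, 0.00104%, 0.000591%, 0.00687%, 0.00117% and 0.00652% of gene counts. Both shares were higher in libraries 1, 4 and 6. Fragments that mapped to several places were 6.75% to 7.18% of the total in those 3 libraries and 7.48% to 8.64% in libraries 2, 3 and 5. If near-identical copies of these places exist elsewhere in the genome, the counts at all 9 are uncertain, and the part of multiple mapping in these differences was not tested.

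The Tyr place parted the libraries far less. The tyrosine tRNA lies just before COX1, antisense to the RNA that leads up to COX1. The place had 560, 430, 317, 641, 447 and 960 opposite-strand counts, a range of 3.03-fold. Libraries 2, 3 and 5 were again the lowest, but close to the others. Own-strand counts were 21, 17, 9, 5, 5 and 6. The own strand made up 2.11% ± 1.45 (SD, n = 6) of its counts, and the log2 ratio was -5.72 (SE 0.32). At the Ser place the corresponding range of opposite-strand counts was 32.2-fold.

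The Pro place is the last of the run, antisense to RNA that has passed the CYTB and Thr places. It had 3166, 19, 23, 1266, 3 and 1312 opposite-strand counts. Libraries 1, 4 and 6 were again far above the rest, and library 1 was the highest. Own-strand counts were 88, 0, 0, 33, 0 and 29, or 2.70%, 2.54% and 2.16% of the counts in libraries 1, 4 and 6. In libraries 2, 3 and 5 the exact 95% binomial interval of the own-strand share reached 17.6%, 14.8% and 70.8%. The log2 ratio was -5.35 (SE 0.37).

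**Figure D2:**
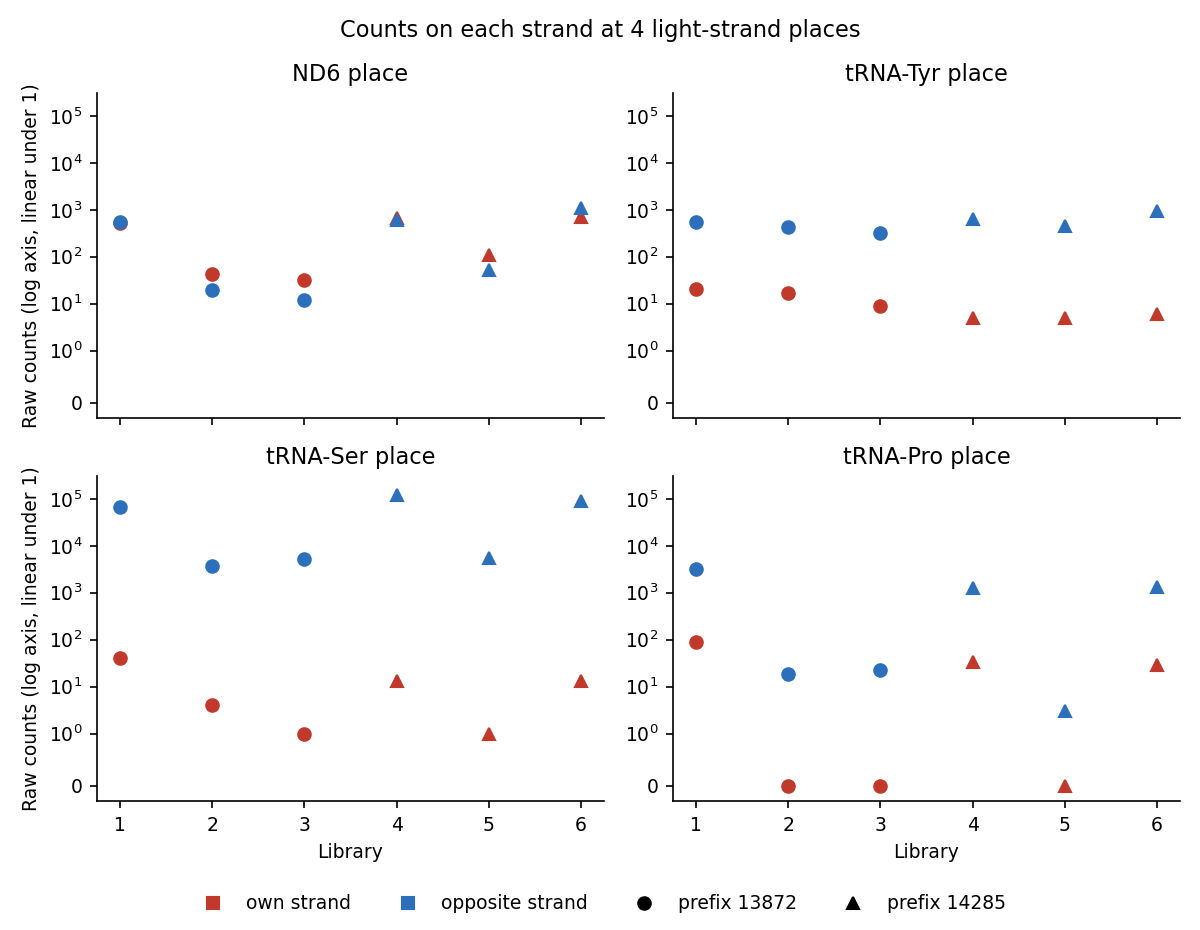
Raw counts (vertical log axis, linear under 1) in libraries 1 to 6 (horizontal axis) on the own strand (red) and opposite strand (blue) at the ND6, Tyr, Ser and Pro places; circles are prefix 13872 and triangles 14285. At the Ser and Pro places libraries 1, 4 and 6 stand above 2, 3 and 5, the Tyr place stays between 317 and 960 opposite-strand counts, and at the ND6 place the strands lie close together.

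The ND6 place had the highest own-strand count of these genes in every library. ND6 is the only protein-coding gene of the light strand. The place had 523, 42, 32, 659, 107 and 713 own-strand counts in libraries 1 to 6, or 46.5, 4.27, 2.59, 60.3, 10.01 and 57.0 CPM. Libraries 1, 4 and 6 were high, and library 5 lay above libraries 2 and 3. These were 67.2%, 41.2%, 43.8%, 87.7%, 85.6% and 87.4% of the own-strand counts of the 9 places, under 50% in libraries 2 and 3, where the Gln place had nearly as many. Opposite-strand counts were 552, 20, 12, 604, 52 and 1074.

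At the ND6 place the counts of the 2 strands lay far closer together than at the Tyr, Ser and Pro places. The own strand made up 48.7% (exact 95% binomial interval 45.6% to 51.7%), 67.7%, 72.7% (57.2% to 85.0%), 52.2%, 67.3% and 39.9% (37.6% to 42.2%) in libraries 1 to 6, a mean of 58.1% ± 13.0 (SD, n = 6). It was over 50% in libraries 2, 3, 4 and 5. The shares of libraries 2, 3 and 5, from 44 to 159 counts on both strands, lay above those of libraries 1, 4 and 6 without overlap. The intervals of libraries 2 and 5 were 54.7% to 79.1% and 59.4% to 74.5%, and that of library 4 was 49.4% to 55.0%. The log2 ratio of own over opposite was 0.37 (SE 0.26, adjusted p = 0.158, edgeR). In the exact sign-flip test, which rests on the 6 libraries of the place alone, p was 0.188. Neither test called a difference. Without library 6 the edgeR log2 ratio was 0.60 and the edgeR adjusted p 0.0459. Intervals cover counting error only.

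The Gln, Ala, Cys and Glu places were sparse. The Gln place, between Ile and Met, had 148, 24, 17, 175, 29 and 292 opposite-strand counts and 69, 39, 31, 22, 10 and 23 own-strand counts. Its opposite-strand counts were highest in libraries 1, 4 and 6, while its own-strand counts were highest in libraries 1, 2 and 3. The own strand was the larger in libraries 2 and 3, at 61.9% and 64.6%. The Ala place, the first of a block of 4 light-strand tRNAs, had 100, 0, 0, 94, 1 and 124 opposite-strand counts and 32, 0, 0, 16, 1 and 32 on the own strand. The Cys place in the same block had 17, 0, 3, 14, 1 and 11 opposite-strand counts and 0 own-strand counts in every library, which still allows an own-strand share of up to 19.5% in library 1. The Glu place, next to ND6, had 48, 0, 0, 46, 0 and 90 opposite-strand counts and 5, 0, 0, 2, 0 and 0 on the own strand. At the Ala, Cys and Glu places libraries 2, 3 and 5 were at or near 0 on both strands. edgeR called these 4 places, with log2 ratios of -1.35 (Gln), -1.93 (Ala), -5.92 (Cys) and -4.51 (Glu) and adjusted p-values of at most 5.07e-05. In the exact sign-flip test their adjusted p-values were 0.190, 0.253, 0.0640 and 0.253. The ratios of the Cys and Glu places rest on own-strand counts at or near 0 and depend on the prior count of the fit.

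Which other genes the fragments touched can be read from the third set of counts in each table, made without regard to strand. In tables of this layout a fragment that touches more than 1 gene is left uncounted as ambiguous. Within a strand column only the genes of that strand compete. A fragment counted on a strand but lost without strand therefore also touched a gene annotated on the other strand. At the Gln, Tyr and Ser places 100% of counts were lost in all 6 libraries: each of them had 0 unstranded counts. The Ala place lost 100% in the 4 libraries where it had counts. The Glu place lost 100%, 100% and 94.4% in libraries 1, 4 and 6. The Cys place, whose neighbours in the run are light-strand places too, lost 0% in all 5 libraries with counts. Over the 12739 IDs tested, the median loss was 0%, and 0.479% of IDs lost all their counts. A fragment that touches more than 1 gene of the same strand is left out of the strand columns too. Over all genes, 15833, 1279, 1848, 7473, 1175 and 10090 fragments were ambiguous in this way in the opposite-strand column of libraries 1 to 6. Their part in the low counts at the Ala, Asn, Cys and Glu places was not tested.

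The ND6 and Pro places kept most of their counts. The ND6 place lost 21.1%, 4.84%, 2.27%, 18.0%, 1.89% and 18.0% in libraries 1 to 6. The Pro place lost 11.8%, 8.01% and 11.2% in libraries 1, 4 and 6, and 0, 1 and 1 counts in libraries 2, 3 and 5. Over the 9 places together, 94.9% to 98.7% of counts were lost.

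**Figure D3:**
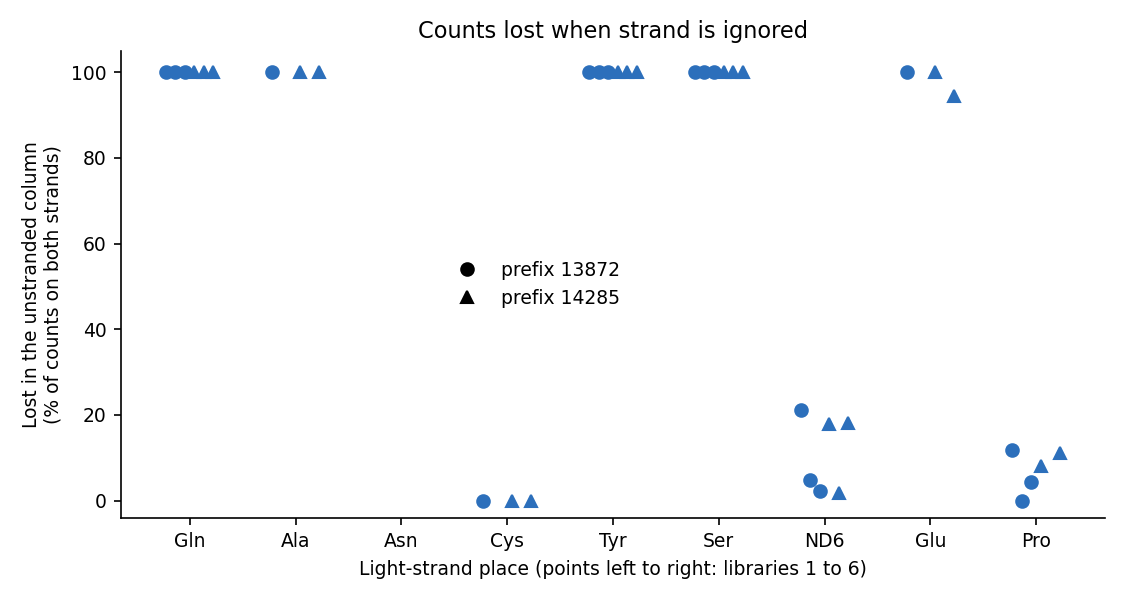
Counts lost in the unstranded column as a percent of the counts on both strands (vertical axis) at each light-strand place (horizontal axis); points run from library 1 to 6 within a place, only where the place had at least 10 counts. The Gln, Ala, Tyr and Ser places lie at 100%, Glu at 94.4% to 100%, Cys at 0%, and ND6 and Pro at or under 21.1%.

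The losses nearly equalled those of heavy-strand neighbours at Ser and Tyr together and at ND6, and differed from them at the Ala, Glu and Pro places. At the COX1 place (ENSOCUG00000029096), 70505, 4990, 6109, 121029, 6633 and 90753 counts were lost in libraries 1 to 6. The Ser and Tyr places on its 2 sides lost 69153, 4159, 5515, 120152, 5844 and 89079 together. These were 83.3% to 99.3% of the COX1 losses, and 98.1% to 99.3% in libraries 1, 4 and 6. The ND6 place lost 227, 3, 1, 227, 3 and 322 counts, and the ND5 place before it (ENSOCUG00000029112) lost 227, 2, 0, 226, 3 and 320. In each library the losses at ND6 and ND5 differed by at most 2 counts. The Gln place lost 217, 63, 48, 197, 39 and 315 counts. These could not be set against its neighbours, since Ile had 0 counts on both strands in every library and Met at most 3. In libraries 1, 4 and 6 the Ala place lost 132, 110 and 156 counts, far fewer than the 3514, 889 and 976 at Trp. In the same libraries the Glu place lost 53, 48 and 85, against 175, 135 and 254 at CYTB, and the Pro place lost 385, 104 and 150, against 310, 73 and 114 at Thr. The order of the IDs along the genome, which the tables do not state, was not settled by these losses.

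**Figure D4:**
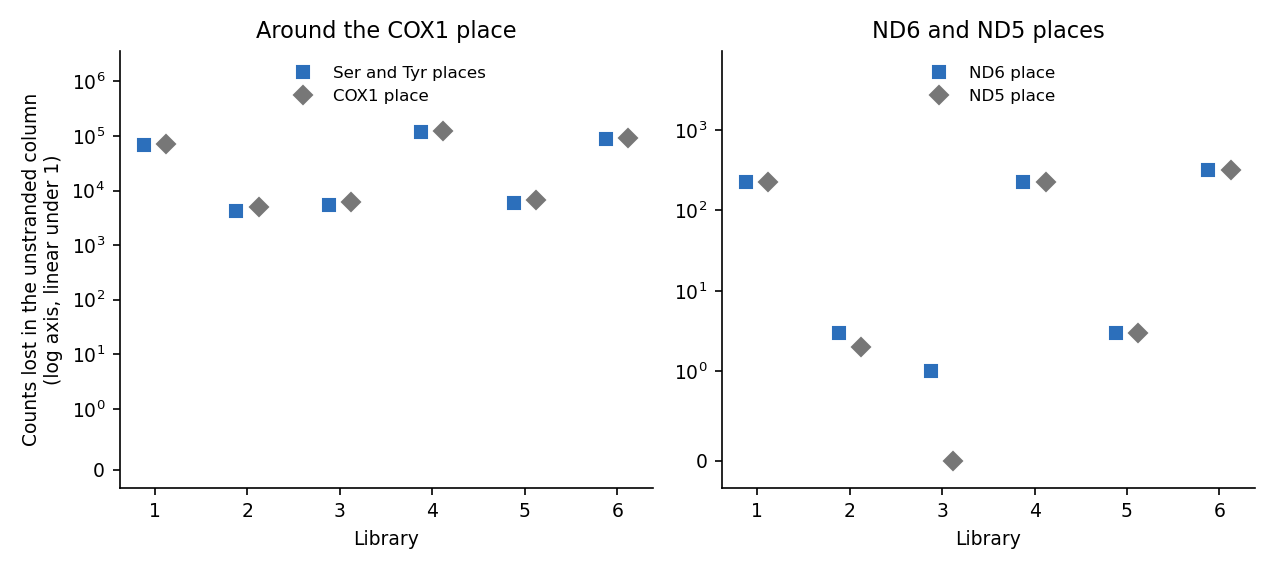
Counts lost in the unstranded column (vertical log axis, linear under 1) in libraries 1 to 6 (horizontal axis), for the Ser and Tyr places together and the COX1 place between them (left), and for the ND6 and ND5 places (right). Blue squares are light-strand places and grey diamonds heavy-strand places; the symbols of a library lie close together, from 1 and 0 counts (ND6 and ND5, library 3) to 120152 and 121029 (around COX1, library 4).

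Set against its neighbour, the Ser place had 9.04%, 0.885%, 1.02%, 13.5%, 0.966% and 9.27% as many opposite-strand counts as the COX1 place had own-strand counts. Own-strand counts at COX1 were 758043, 418887, 507537, 884017, 557862 and 949890, a spread far smaller than that of the Ser place. The step between libraries 1, 4 and 6 and the others was not particular to light-strand places. Own-strand counts at the COX2 place were 90913, 102, 73, 80928, 65 and 100473. The highest own-strand count was at least 703 times the lowest at the COX2, ATP6, COX3, ND3, ND4, ND5 and CYTB places. At the 12S rRNA, 16S rRNA, ND1 and ND2 places it was at most 4.55 times the lowest. The cause was not tested. Fragments lost at the Ser place were 40.7%, 6.83%, 6.96%, 57.6%, 8.98% and 47.3% of all fragments that the libraries lost as ambiguous without strand.

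The opposite strand of the 28 heavy-strand places is that of the light-strand transcript. Counts on it summed to 15776, 4888, 5030, 12565, 2335 and 16356 in libraries 1 to 6. The own-strand counts of the 9 light-strand places summed to 778, 102, 73, 751, 125 and 816, so the heavy-strand places held 16.7 to 68.9 times as many. In libraries 2 and 3 the COX1 place held 2863 and 2990 of these opposite-strand counts. Counts on the opposite strand made up 0.278% to 1.01% of all counts at heavy-strand places, against 1.30% to 1.67% over all IDs outside the run. The share differed along the run, with a mean over the libraries of 16.4% ± 3.7 (SD, n = 6) at the ND5 place, 14.1% ± 5.8 at ND1, 5.68% ± 1.03 at ND2 and 0.313% ± 0.262 at COX1. The ND5 mean includes libraries 2, 3 and 5, with 32 to 53 counts on both strands; in libraries 1, 4 and 6 its share was 13.7%, 13.5% and 12.5%. At the ND4 place the share was 11.0%, 5.92% and 5.85% in libraries 1, 4 and 6, and 17.9% to 26.3% in libraries 2, 3 and 5, from 19 to 34 counts on both strands. The ND5 place, beside ND6, had 6605, 10, 7, 7291, 8 and 10004 opposite-strand counts. This was 11.1 to 14.0 times the own-strand counts of ND6 in libraries 1, 4 and 6, and 0.0748 to 0.238 times in libraries 2, 3 and 5. Counts of places of different length are not levels per length, and lengths were not used here.

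Some counts on the strand with less RNA may be fragments given the wrong strand. At the 12S rRNA place the opposite strand held 0.00342% to 0.233% of counts, at the COX1 place 0.0913% to 0.679%, and over all IDs outside the run 1.30% to 1.67%. The own-strand share at the Ser place, 0.0109% to 0.108%, lay within the range of the 12S rRNA place. The own-strand shares at the ND6 and Gln places, 39.9% to 72.7% and 7.30% to 64.6%, lay above all of these. The part of wrongly assigned strands was not tested, either in the own-strand counts of light-strand places or in the opposite-strand counts of heavy-strand places.

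The title prefix was compared as a possible batch. On the own strand, 0 of the 5 light-strand places tested were called in edgeR, where 0.0419% of 11945 IDs were called. An unadjusted edgeR p under 0.05 was reached by 1 of the 5 places and by 2512 of the 11945 IDs. On the opposite strand, 0 of 7 were called, where 0.85% of 1999 IDs were called. There an unadjusted edgeR p under 0.05 was reached by 1 of the 7 places and by 256 of the 1999 IDs. With no low-count filter, 6 of 9 were called on the opposite strand, the Ser place (log2 fold change 1.82) and the Tyr place (0.91) among them, where 1.27% of 15321 IDs were called. DESeq2 called 0 of the 2 and 6 places to which it gave an adjusted p. The place with an unadjusted p under 0.05 on the own strand was Gln, with 31 to 69 counts under 13872 and 10 to 23 under 14285, without overlap; its log2 fold change of 14285 over 13872 was -1.33, with an SE of 0.44 (edgeR adjusted p = 0.165). The place on the opposite strand was Tyr, at a log2 fold change of 0.78 with an SE of 0.34 (edgeR adjusted p = 0.381). Own-strand counts at the Tyr place, too few for the test, were 9 to 21 under 13872 and 5 to 6 under 14285. In the same test 3 heavy-strand places were called lower under 14285 on their opposite strand: 12S rRNA by a log2 fold change of -5.37, 16S rRNA by -2.57 and COX1 by -1.60. Opposite-strand counts of all IDs outside the run were also lower under 14285, at 1.33% ± 0.04 (SD, n = 3) against 1.59% ± 0.09, without overlap, and their part in these differences was not tested.

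The high and low libraries at the Ser, ND6 and Pro places did not follow the prefix. Prefix 13872 held 1 library with high values and 2 with low values, and prefix 14285 held 2 and 1. With the 3 libraries of each prefix fitted alone, 3 light-strand places were called higher on the opposite strand under 13872, of 5 tested, and 3 under 14285, of 4 tested; over all IDs the shares were 3.87% and 3.66%. Under 13872 the log2 ratio of the Gln place was 0.025, against -1.35 over all libraries.

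The IDs outside the run whose pattern was most like that of the ND6 and Ser places spanned narrower ranges. Among 9260 IDs outside the run with a mean of 5 CPM or more, ENSOCUG00000026842 had the highest Pearson's r over the 6 libraries with the own-strand log2 CPM of the ND6 place, 0.986, followed by ENSOCUG00000015891 at 0.974. Their own-strand levels spanned 9.15 to 13.4 CPM and 3.48 to 7.22 CPM, where the ND6 place spanned 2.59 to 60.3 CPM. For the opposite-strand log2 CPM of the Ser place the highest were ENSOCUG00000016164 (r = 0.988, 3.15 to 12.2 CPM) and ENSOCUG00000014561 (r = 0.977, 10.3 to 28.04 CPM). These values describe the 6 libraries, in which each pattern rests largely on the step between libraries 1, 4 and 6 and the others. They are the highest picked from 9260 IDs over only 6 libraries, and how high r would reach by chance was not tested. Places of the run were not candidates, though heavy-strand places such as COX2 and CYTB had that step too.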

How the data were processed

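The 6 libraries are strand-specific and come from total RNA from which ribosomal RNA had been removed, per the labels' protocols. The authors deposited raw counts of fragments per gene without regard to strand and for each strand, laid out as STAR writes them. Per the submitters' processing notes, the tools were STAR and DESeq2, and the build was OryCun2.0. The sources used here give no annotation release, version or counting option. The 4 rows that name no gene stayed out of library sizes and tests. The members, the lists and the comparisons were chosen with earlier results of these data known.

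The own strand was compared with the opposite strand across all IDs with edgeR 4.0.16 (R 4.3.3): quasi-likelihood test, library as a block, 1 library size for both strands, IDs with 10 counts over both strands in at least 3 libraries, Benjamini-Hochberg adjustment, threshold 0.05. Standard errors are the absolute log2 ratio over the square root of F. Prefixes were compared with TMM and filterByExpr. The exact two-sided sign-flip test used log2 ratios with 0.5 added to each count. Intervals are exact binomial. All 9 places are named, with their neighbours in the run where these are described, and the 2 IDs most like ND6 and Ser by Pearson's r; nuclear and cell type lists were not run, since 0 IDs have a symbol here. Fits were tested on simulated data. Alternatives were DESeq2 1.42.0, other filters and scalings, no block and each library left out; robust estimation and each prefix alone were added after seeing the data.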

Additional observations from a re-analysis of the deposited data

Results flagged for a closer look

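In 26 sets of 6 values, 1 library lay far apart from the rest of its set by Dixon's test; about 1 set in 20 does so by chance. The own-strand level of the Ser place was 3.56 CPM in library 1, from 40 counts, against 0.081 to 1.19 CPM in the other libraries. Its opposite-strand count in that library, 68532, was the third highest of the 6.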

How the results depend on the processing

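Of the 7 light-strand places called higher on the opposite strand, 5 were called with DESeq2, 6 with no replicate block, 7 with robust estimation and 3 in the exact sign-flip test; the 5 calls of DESeq2 leave out the Cys place (adjusted p = 0.0790) and the Glu place (0.461), and the fit with no block leaves out the Ala place (0.0682). With 1 library left out, 4 to 7 were called higher on the opposite strand and 0 to 1 on the own strand. The 4 came without library 1, 4 or 6, when 5 places passed the filter, and the 1 was ND6 without library 6. Each prefix alone gave 3 and 3, with fewer places tested, and under 13872 the log2 ratio of the Gln place turned to 0.025 (adjusted p = 0.954). With each column scaled to its own gene counts, 8 places were called, ND6 among them with a log2 ratio of -5.36, and over all IDs 6773 were higher on the own strand and 2556 on the opposite strand, against 11849 and 625; this scaling divides the opposite strand by a far smaller total. With no block the ND6 ratio was -0.13 (adjusted p = 0.878). The number of IDs higher on the opposite strand was 1248 with no low-count filter and 133 at 100 counts in 3 libraries, which test more and fewer IDs.

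For the prefix on the own strand, 5 IDs were called, against 508 with DESeq2, 79 with no low-count filter, 36 with robust estimation and 1 to 2 with 1 library left out. On the opposite strand 17 were called, against 28 with no TMM, 195 with no low-count filter and 1 to 10 with 1 library left out. Light-strand places were called in the prefix comparison only with no low-count filter, 6 on the opposite strand, the Ser place (log2 fold change 1.82) and the Tyr place (0.91) among them; the cause was not tested. The mean share of the 9 places in opposite-strand gene counts, 20.2%, was 0.182% of all fragments. It was 15.2% to 23.7% with 1 library left out, and the own-strand percent of ND6 was 55.2% to 61.7%. The own-strand share is undefined where a place had no counts, as at the Ala place in libraries 2 and 3 and the Glu place in libraries 2, 3 and 5. At the Ala place in library 5, with 1 count on each strand, the interval of the share was 1.26% to 98.7%.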
